A study of Mus musculus with 6 samples.

Results

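The tumour suppressor p53 and target genes of its pathway, 10 genes in all, were examined in N2A cells, a mouse neuroblastoma line, after knockdown of the long noncoding RNA *Paupar*. The 10 genes, *Trp53*, *Mdm2*, *Ccng1*, *Btg2*, *Sesn1*, *Bax*, *Bbc3*, *Apaf1*, *Trp53inp1* and *Trp53i11*, were chosen by name, and each was read from the transcript cluster selected by the highest mean over the 6 arrays. A transcript cluster is the set of probes that the array summarises to 1 value. Of the 10 genes, 8 had a cluster that carried their symbol alone, out of 19938 named genes, and each had a single such cluster. They lie on chromosomes 1 (*Btg2*), 2 (*Trp53i11*), 4 (*Trp53inp1*), 7 (*Bbc3*), 10 (*Mdm2*, *Sesn1* and *Apaf1*) and 11 (*Ccng1*). *Trp53* itself and *Bax* were not analysed here. The list was drawn up with earlier results of these arrays known, in which *Trp53i11*, *Ccng1* and *Btg2* were lower and *Apaf1* was higher. The calls for these 4 genes therefore describe the data and add no independent support.

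The knockdown group held 3 cultures transiently transfected with 1.5 µg of a plasmid encoding a *Paupar*-targeting hairpin RNA (shRNA), and the control group held 3 cultures given a non-targeting vector in the same way. All cells were grown with 10% serum, and total RNA was taken 2.5 days after transfection and hybridised to whole-transcript mouse arrays, 1 array per culture. The transfection was transient, with no selection step given for these cultures, and 1 hairpin was used. *Paupar* itself, and with it the size of the knockdown, was not analysed here. In such bulk RNA, fewer cells of a kind and less RNA per cell cannot be told apart. All 10 measured markers of sympathetic neuroblastoma, such as *Phox2a*, *Hand2* and *Mycn*, lay above the median of all named genes, while none of 4 glial markers, 1 of 4 blood and endothelial markers and 3 of 7 fibroblast and muscle markers, *Myh3* among them, did. The mean over the neuroblastoma markers was 10.72 to 10.87 on the knockdown arrays and 11.05 to 11.14 on the control arrays (log2), and *Th*, *Dbh* and *Chgb* among them fell. The part of this shift in the results on p53 targets was not tested.

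p53 is a transcription factor that is held low by *Mdm2*, an E3 ubiquitin ligase and itself a p53 target. When DNA is damaged or growth signals are abnormal, p53 is stabilised and switches on genes that arrest the cell cycle, limit metabolism or start apoptosis. Through the CDK inhibitor p21 and the DREAM repressor complex it also lowers many genes of mitosis. Several of its targets are also set by other signals, so their levels are not a reading of p53 alone.

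p53 binds DNA at pairs of a half-site of 10 bases that reads the same on both strands. The 250 bases upstream of each RefSeq start site (GRCm38.p6) were searched for exact matches to this half-site consensus. A match was present in 7.13% of 32851 promoters. Promoters were listed for 9 of the 10 genes, 12 promoters in all. Of the 12, 5 had a match, each in a different gene, among them the measured genes *Ccng1*, *Mdm2* and *Sesn1*. A full site, 2 half-sites separated by at most 13 bases with at most 1 mismatch in all, was present in 0.505% of promoters and, among these genes, in that of *Ccng1*. The promoters of these 3 genes are printed to show the matches, and that of *Trp53i11* because it had the largest change of the 8 genes and no match. Capitals mark a half-site, or in *Ccng1* the full site, and all sequences run 5′ to 3′ towards the start site.
*Ccng1*, chr11:40755287-40755536, strand -: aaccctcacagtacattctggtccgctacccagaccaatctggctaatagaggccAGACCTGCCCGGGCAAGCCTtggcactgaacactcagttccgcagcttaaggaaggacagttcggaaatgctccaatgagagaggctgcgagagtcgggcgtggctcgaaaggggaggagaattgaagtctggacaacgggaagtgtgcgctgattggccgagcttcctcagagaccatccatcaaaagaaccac
*Mdm2*, chr10:117710759-117711008, strand -: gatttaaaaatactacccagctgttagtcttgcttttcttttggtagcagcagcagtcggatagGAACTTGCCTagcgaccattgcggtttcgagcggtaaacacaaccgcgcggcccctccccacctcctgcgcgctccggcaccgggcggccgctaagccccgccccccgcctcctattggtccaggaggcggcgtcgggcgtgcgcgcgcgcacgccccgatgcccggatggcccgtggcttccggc
*Sesn1*, chr10:41887189-41887438, strand +: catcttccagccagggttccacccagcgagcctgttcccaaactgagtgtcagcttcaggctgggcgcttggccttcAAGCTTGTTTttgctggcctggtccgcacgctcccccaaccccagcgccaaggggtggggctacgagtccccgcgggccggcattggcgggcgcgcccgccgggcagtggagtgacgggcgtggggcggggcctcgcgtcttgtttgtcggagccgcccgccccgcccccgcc
*Trp53i11*, chr2:93187298-93187547, strand +: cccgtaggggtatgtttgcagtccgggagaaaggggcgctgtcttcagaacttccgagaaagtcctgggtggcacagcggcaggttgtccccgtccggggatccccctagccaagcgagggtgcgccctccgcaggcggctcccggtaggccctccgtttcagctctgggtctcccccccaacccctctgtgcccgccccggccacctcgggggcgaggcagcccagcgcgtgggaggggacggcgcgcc

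In *Ccng1* the full site spanned 195 to 176 bases before the start, with its 2 half-sites adjacent and 1 mismatch in the first. The half-site of *Mdm2* began 186 bases before the start. That of *Sesn1* began 173 bases before the second of its 2 listed starts, and the first start had none. The listed promoters of *Btg2*, *Apaf1* and *Bbc3*, like that of *Trp53i11*, had no match. A match describes the letters only, and the lack of one covers only exact half-sites within the 250 bases searched.

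The comparison of knockdown with control arrays asked which genes of the pathway changed when *Paupar* was lowered. *Trp53i11*, *Ccng1* and *Btg2* fell, *Apaf1* rose, *Trp53inp1* was lower without passing the test, and *Mdm2*, *Sesn1* and *Bbc3* did not pass. Of the 8 genes, 6 passed the filter on variation and were tested. Among these, 3 fell, where 5.16% of all 9969 tested genes fell, and 1 rose, where 2.39% of tested genes rose (limma, Benjamini-Hochberg adjusted p under 0.05). The median log2 fold change was -0.39 over the 8 genes and 0.03 over all named genes. Because the 8 genes were chosen with results known, nothing further is read from these counts.

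**Figure D1:**
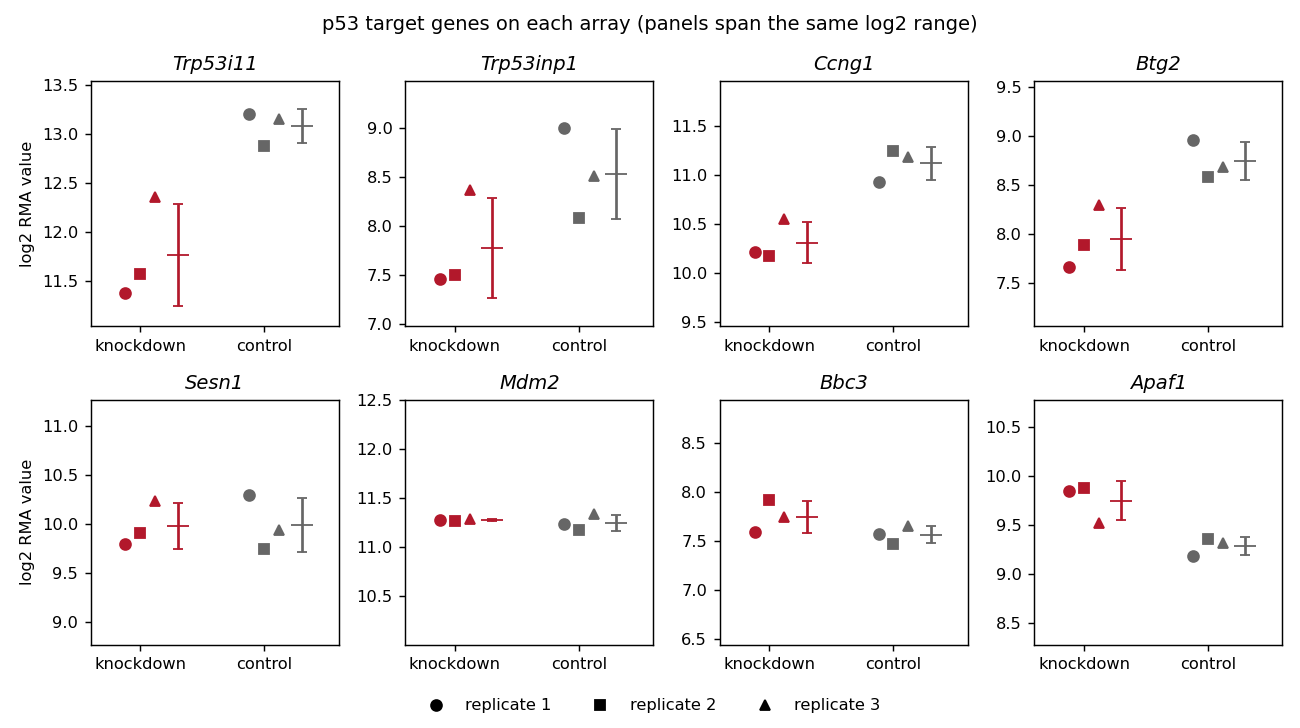
Log2 RMA value (y axis) of the 8 measured genes on each knockdown (red, left) and control (grey, right) array. Marker shape gives the replicate, and the bar beside each group is its mean and SD (n = 3 per group). Every panel spans the same range of log2 units. The groups do not overlap for *Trp53i11*, *Ccng1*, *Btg2* and *Apaf1*, and knockdown replicate 3 is the knockdown array nearest to the controls in all 4.

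*Trp53i11* encodes a p53-inducible protein that has been linked to apoptosis in human cells. Its log2 values were 11.37, 11.57 and 12.36 on the knockdown arrays, against 13.21, 12.88 and 13.15 on the control arrays. All 3 knockdown arrays lay below every control array, and knockdown replicate 3 stood 0.78 above the next knockdown array. With a log2 fold change of -1.31 (SE 0.20), the level was 2.48-fold lower in the knockdown (adjusted p = 0.00277). Of all 19938 log2 fold changes only 1 was lower. It was also the 1 gene of the 8 that passed in each fit with an array left out, with log2 fold changes between -1.60 and -1.11.

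*Ccng1* encodes cyclin G1, which guides a phosphatase to MDM2. It stood at 10.21, 10.17 and 10.55 on the knockdown arrays and at 10.93, 11.25 and 11.18 on the control arrays (log2). The groups were separate, with the highest knockdown array below the lowest control array. Expression was 1.75-fold lower in the knockdown, a log2 fold change of -0.81 (SE 0.14, adjusted p = 0.00425), and only without control replicate 3, among the 6 fits with 1 array left out, did it miss the threshold (adjusted p = 0.0549).

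*Btg2* encodes an antiproliferative protein that binds the CCR4-NOT deadenylase. Its log2 values were 7.67, 7.89 and 8.30 on the knockdown arrays, against 8.96, 8.59 and 8.69 on the control arrays. These groups did not overlap either, though knockdown replicate 3 came within 0.29 of control replicate 2. The log2 fold change was -0.79 (SE 0.16, adjusted p = 0.0111), or 1.73-fold lower in the knockdown. The threshold was missed without knockdown replicate 2, control replicate 1 or control replicate 3 (adjusted p = 0.0507, 0.0661 and 0.0735).

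*Sesn1* encodes sestrin 1, a stress protein that restrains the growth kinase mTORC1. It was measured at 9.80, 9.90 and 10.24 on the knockdown arrays and at 10.29, 9.75 and 9.93 on the control arrays (log2). The groups overlapped fully. The log2 fold change was -0.01 (SE 0.16, adjusted p = 0.965), and its 95% interval allowed a knockdown level of 0.787 to 1.25 times the control level.

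The negative feedback arm was represented by *Mdm2*. It was at 11.27, 11.26 and 11.28 on the knockdown arrays and at 11.24, 11.17 and 11.34 on the control arrays (log2). The 3 knockdown arrays lay inside the range of the controls, with an SD of 0.0099 against 0.083. This gene did not pass the filter on variation, so its values come from a fit to all named genes, where the log2 fold change was 0.02 (SE 0.08, adjusted p = 0.912). The 95% interval ran from 0.897 to 1.15 times the control level.

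*Bbc3* encodes PUMA, a BH3-only protein that sets off mitochondrial apoptosis. Its log2 values were 7.59, 7.91 and 7.74 on the knockdown arrays, against 7.57, 7.47 and 7.65 on the control arrays. The lowest knockdown array lay below the highest control array, so the groups overlapped. It too was removed by the filter, and in the fit to all genes the log2 fold change was 0.18 (SE 0.10, adjusted p = 0.384, 95% interval 0.970 to 1.33 times the control level).

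*Apaf1* encodes the scaffold of the apoptosome, which activates caspase-9 once cytochrome c is released. It stood at 9.85, 9.88 and 9.53 on the knockdown arrays and at 9.19, 9.36 and 9.33 on the control arrays (log2), all 3 knockdown arrays above the controls. The log2 fold change was 0.46 (SE 0.13, adjusted p = 0.0451), a 1.38-fold rise. This call was the least stable of the 4. It was lost without knockdown replicate 1 (adjusted p = 0.174), knockdown replicate 2 (0.209), control replicate 1 (0.101) or control replicate 3 (0.130), and when all named genes were tested (0.0584).

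*Trp53inp1* encodes a stress protein that promotes p53 phosphorylation and autophagy. Its log2 values were 7.46, 7.50 and 8.37 on the knockdown arrays, against 9.01, 8.09 and 8.52 on the control arrays. Knockdown replicates 1 and 2 lay below every control array, whereas knockdown replicate 3 lay above control replicate 2. The mean was 1.69-fold lower in the knockdown, with a log2 fold change of -0.76 (SE 0.24, adjusted p = 0.0638) and a 95% interval of -1.26 to -0.25. Without knockdown replicate 3 or control replicate 2 the gene passed (adjusted p = 0.0150 and 0.0139). With all 6 arrays it passed with array weights (5.3e-05), an intensity trend (0.0476), a filter by sample variance (0.000143) or a replicate block (0.0219). It did not pass without a filter (0.166) or with arrays centred on their median (0.0759). Nor did it pass with the mean of all clusters of a gene (0.0643) or with all transcript clusters tested (0.2775). The degrees of freedom of the moderated test were 9.48 without a filter, 14.6 with the main filter and 262 with the variance filter. At 262 a gene's own spread counted for little. The log2 fold change with 1 array left out ranged from -1.05 to -0.52.

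**Figure D2:**
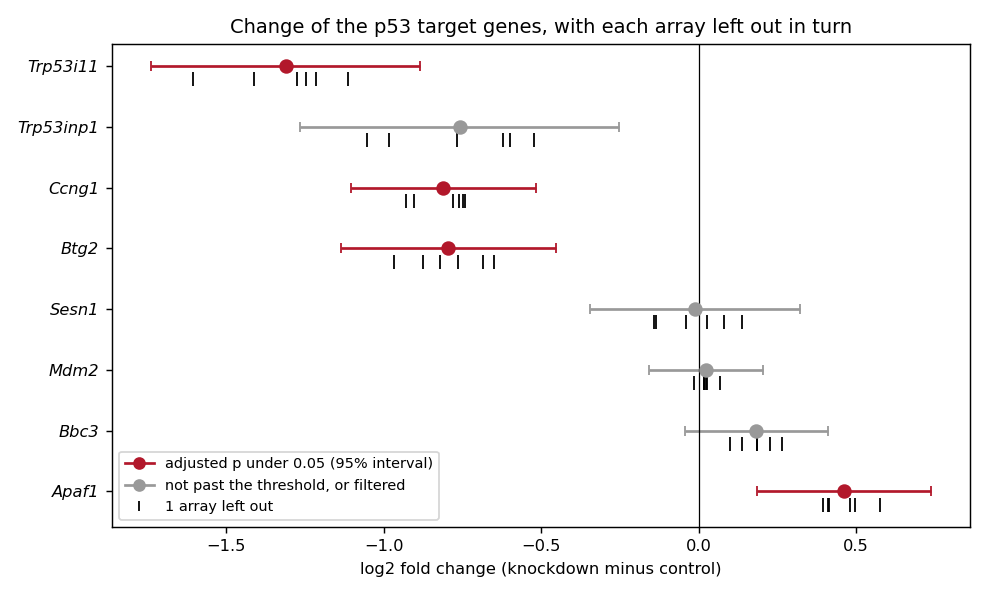
Log2 fold change of the 8 genes (x axis, knockdown minus control) with its 95% interval. Red points passed an adjusted p of 0.05 and grey points did not or were removed by the filter on variation. Vertical ticks give the log2 fold change with 1 array left out. The ticks of *Trp53i11* lie between -1.60 and -1.11, and those of *Sesn1* and *Mdm2* lie on both sides of 0.

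The count of genes called depended on single arrays. It was 4 with all arrays, 2 without knockdown replicate 2, 2 without control replicate 1, 1 without control replicate 3 and 3 to 5 in the other fits with 1 array left out. Calls over all genes moved as well. They numbered 752 with all arrays, 138 without knockdown replicate 2, 242 without control replicate 1 and 112 without control replicate 3. None of the 8 passed when the same filter and test were run on all transcript clusters of the array, named or not. Of the 8, 5 had an unadjusted limma p under 0.05 there, as did 3015 of all transcript clusters. Control replicate 1 and knockdown replicate 3 received the lowest array weights in limma (0.289 and 0.312), and control replicate 3 the highest (4.44). With both low-weighted arrays left out, a setting added after the data were seen, 5 genes passed, the same 4 and *Trp53inp1*. In that setting 1623 of all genes passed, against 752 with all arrays.

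The groups did not overlap for 3 genes with lower and 1 gene with higher knockdown values, where 10.8% and 12.8% of all named genes had no overlap in these directions. The spread within groups also had a shared form, which was noticed after the values were seen. Knockdown replicate 3 lay nearest to the control mean in all 4 genes called, as it did in 560 of all 752 genes called (74.5%). In *Trp53i11*, *Btg2*, *Sesn1* and *Trp53inp1*, knockdown replicate 3 was the highest and replicate 1 the lowest of the knockdown arrays, and control replicate 1 the highest and replicate 2 the lowest of the controls. This order was found in 1421 named genes (7.13%). *Ccng1*, which also fell, did not have this order, and *Sesn1* had it with a log2 fold change near 0.

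The rest of the pathway was described with 4 lists by role, which name 88 symbols besides the 10 genes. Of these, 81 were measured and 54 passed the filter and were tested. The CDK inhibitor gene *Cdkn1a*, which encodes p21, was not analysed here, since its cluster carried 2 gene symbols. Over the 81 genes, 9 rose, 3 fell, 42 did not pass and 27 were removed by the filter, with a median log2 fold change of 0.07. The counts below are read beside the 2.39% of all tested genes that rose and the 5.16% that fell, and the 3 that fell among 54 lie near that background.

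Among 24 measured regulators and relatives of p53, of which 14 were tested, *Chek1* and *Chek2*, kinases that relay DNA damage signals to p53, rose and none fell. *Chek1* was at 10.38, 10.35 and 10.33 on the knockdown arrays and at 9.43, 9.90 and 9.83 on the control arrays (log2), a 1.55-fold higher level (adjusted p = 0.0157). *Chek2* was 1.39-fold higher (9.38 ± 0.15 in the knockdown and 8.90 ± 0.11 in the control, SD, n = 3 each, adjusted p = 0.0348). Neither call held in every fit with 1 array left out: *Chek1* missed without knockdown replicate 1, knockdown replicate 2 or control replicate 3, and *Chek2* missed in all 6.

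The *Mdm2* homologue *Mdm4*, whose protein blocks the p53 activation domain, had a log2 fold change of -0.04 (SE 0.13, adjusted p = 0.852). The p53 relatives *Trp73* and *Trp63* had log2 fold changes of 0.20 (SE 0.13, adjusted p = 0.331) and 0.02 (SE 0.08, filtered). All 3 overlapped between groups. The mean levels of *Trp73* and *Trp63* lay below the median of all named genes, at percentiles 39.6 and 42.7. The median log2 fold change over this list was 0.01.

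Among 26 measured targets of arrest, repair and metabolism, 18 were tested, of which 2 fell and none rose. *Ephx1*, which encodes microsomal epoxide hydrolase, stood at 10.33, 10.44 and 11.02 on the knockdown arrays and at 11.39, 11.13 and 11.42 on the control arrays (log2), 1.64-fold lower (adjusted p = 0.0214). *Ddit4*, an inhibitor of mTORC1, was 1.40-fold lower (11.37 ± 0.16 in the knockdown and 11.85 ± 0.17 in the control, SD, n = 3 each, adjusted p = 0.0398). Both had separate groups. Log2 fold changes over the list ran from -0.71 to 0.43, with a median of 0.01.

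Of 17 measured death targets 11 were tested, 2 rose, 1 fell and 8 did not pass. *Pidd1*, a death domain protein that activates caspase-2, was at 9.24, 9.06 and 9.09 on the knockdown arrays and at 8.43, 8.69 and 8.56 on the control arrays (log2), 1.49-fold higher (adjusted p = 0.0144). *Ckap2*, 1.38-fold higher (adjusted p = 0.0380), encodes a microtubule protein of the mitotic spindle. *Tnfrsf23*, which encodes a decoy receptor for the death ligand TRAIL in mice, was 1.40-fold lower (adjusted p = 0.0349). The death receptor gene *Fas* and the BH3-only gene *Pmaip1* did not pass or were filtered, with log2 fold changes of 0.11 and 0.08. The mean levels of *Tnfrsf23*, *Fas* and *Pmaip1* lay below the median of all named genes, at percentiles 38.3, 15.6 and 38.4.

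The last list holds genes of the cell cycle that p53 lowers through p21 and DREAM. Of 14 measured genes 11 were tested, 5 rose and none fell. All 14 had a log2 fold change above 0, where 58.4% of all named genes did, and the median was 0.39. The transcription factor gene *Foxm1* was 1.52-fold higher, with 11.23, 11.20 and 10.99 on the knockdown arrays and 10.26, 10.61 and 10.74 on the control arrays (log2, adjusted p = 0.0214). Cyclin A2 (*Ccna2*) was 1.37-fold higher (adjusted p = 0.0305), and *Plk1*, *Birc5* and *Aurkb* were 1.34-fold higher (adjusted p = 0.0478, 0.0481 and 0.0454). In 11 of the 14 genes every knockdown array lay above every control array, beside the 12.8% of all named genes given above. Higher levels of cell cycle genes on these arrays were known when the list was written, so it is not independent evidence. By flow cytometry, the paper reported a build-up of *Paupar* knockdown cells in the S and G2 phases. The part of such a shift, or of p53, in the levels of these genes was not tested.

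**Figure D3:**
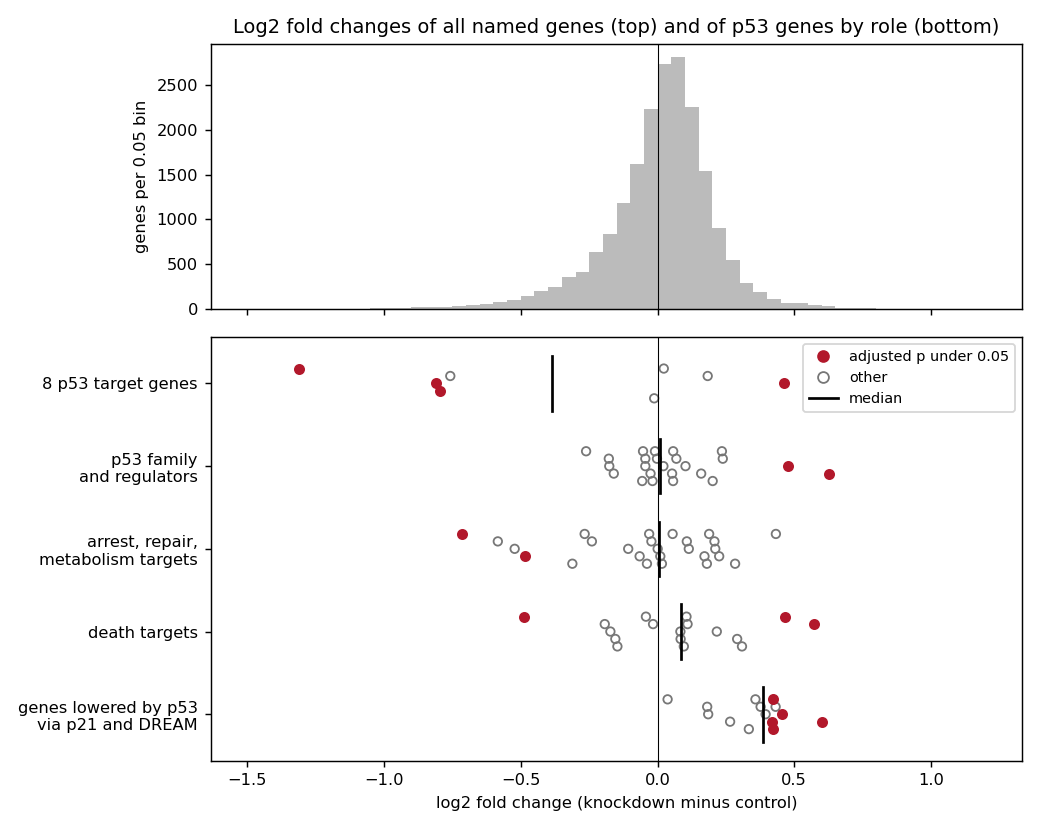
Upper panel, number of named genes (y axis) per bin of log2 fold change (x axis, knockdown minus control). Lower panel, log2 fold change of the 8 p53 target genes and of the 4 role lists, where each circle is a gene, filled red circles passed an adjusted p of 0.05 and black bars are medians. The medians lie at -0.39 for the 8 genes, 0.01 for regulators, 0.01 for arrest, repair and metabolism targets, 0.08 for death targets and 0.39 for the genes lowered through p21 and DREAM.

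The 12 genes called in these lists also depended on single arrays. None passed without knockdown replicate 1, knockdown replicate 2 or control replicate 3 (19, 19 and 23 genes had an unadjusted limma p under 0.05), and *Chek1* alone passed without control replicate 1.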

How the data were processed

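RNA from 3 *Paupar* knockdown and 3 control cultures of N2A cells was profiled on Affymetrix Mouse Gene 1.0 ST arrays from 200 ng of RNA each. The study's methods call the cultures biological replicates. According to the methods the authors used RMA with background correction and quantile normalisation, and the deposited values are log2 expression values. Tool versions and genome build were not given in the sources used here. Quantile normalisation forces all arrays to 1 distribution, so changes are relative to the other genes of an array.

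Of 35556 transcript clusters, 21789 carried 1 gene symbol in the platform annotation, 1621 several and 12146 none. Of the first, 21698 matched RefSeq genes (GRCm38.p6) by Entrez identifier, which changed 0 symbols. The cluster with the highest mean was kept for each gene. As the methods filtered on variation with a cut-off of 0.5, the lower 50% of genes by interquartile range were removed, leaving 9969. Groups were compared across all of them by limma 3.58.1 under R 4.3.3 (functions lmFit and eBayes). P-values were adjusted by Benjamini-Hochberg and called under 0.05. For genes that failed the filter, values come from fitting all 19938 genes. SE and 95% intervals are the moderated ones. The number of arrays limits the precision.

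The members and the role lists were chosen with earlier results of these data known. The text names the members, all genes of the role lists past the threshold, and *Mdm4*, *Trp63*, *Trp73* and *Cdkn1a*; *Fas*, *Pmaip1* and the genes of the closing section were added after their values were seen. A planned search for genes with a pattern like that of *Trp53* was not made, since *Trp53* was not analysed here. Promoter sequences are from RefSeq. The filter and fit were also run on simulated arrays, 20 runs with 200 changed genes each. They recovered 99% of log2 changes of 1 and 37% of log2 changes of 0.5. Of the calls in these runs, 7.2% were false. Whether these rates hold for the measured arrays was not tested. Alternatives changed the filter, scaling, choice of cluster, features tested, array weights, prior, pairing and replicates.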

Additional observations from a re-analysis of the deposited data

How the results depend on the processing

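The 3 counts are of called members (4), called genes of the role lists (12) and all called genes (752). All became 0 when the same filter and limma fit were run on all transcript clusters, named or not. In that setting 5 members, 19 genes of the role lists and 3015 clusters had an unadjusted limma p under 0.05. With arrays weighted by their spread the role lists had 39 calls and all genes 5561. With 1 array left out the counts ranged from 1 to 5, from 0 to 15 and from 112 to 1239. With control replicate 1 and knockdown replicate 3 both left out, chosen after the data were seen, all genes had 1623 calls. The replicate block gave 4, 11 and 680, with *Trp53inp1*, *Trp53inp2* and *Dgka* passing and *Apaf1*, *Aurkb*, *Birc5* and *Plk1* not, so that the role lists had 6 rises and 5 falls, against 9 and 3 without it, and the list lowered through p21 and DREAM 2 calls, against 5. The labels give a replicate number and do not say whether same-numbered arrays were paired. Their deviations from the group means correlated at -0.288, 0.0624 and 0.0751. Those of differently numbered arrays correlated at -0.316 to 0.374. With 3 arrays per group these values cannot decide on pairing. Other settings kept each count within a factor of 1.5. Of the 23 genes followed singly, 4 that had not passed changed sign. *Mdm2* was at -0.044 with array weights and between -0.015 and 0.067 with 1 array left out. *Sesn1* was at 0.0078 with arrays centred on their median, at 0.010 with the 2 arrays left out and between -0.14 and 0.14 with 1 left out. *Mdm4* was at 0.066 with array weights and between -0.15 and 0.044 with 1 array left out. *Trp63* was at -0.023 with the 2 arrays left out and between -0.0057 and 0.047 with 1 left out. The cause was not tested.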

Other observations

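Some further genes of the pathway did not pass, and were picked after their values were seen. *Trp53inp2*, the paralogue of *Trp53inp1*, stood at 9.98, 9.82 and 10.50 on the knockdown arrays and at 10.96, 10.46 and 10.63 on the control arrays (log2 fold change -0.58, SE 0.17, limma adjusted p = 0.0521). Knockdown replicate 3 lay above control replicate 2, as it did for *Trp53inp1*. The diacylglycerol kinase gene *Dgka* had a log2 fold change of -0.52 (SE 0.16, adjusted p = 0.0615), and *Gtse1*, which restrains p53 in G2 phase, one of 0.43 (SE 0.14, adjusted p = 0.0807). *Wrap53*, which encodes a telomerase holoenzyme protein, had a log2 fold change of 0.33 (SE 0.14, adjusted p = 0.147). That of *Trp53i13* was 0.22 (SE 0.11, limma adjusted p = 0.224).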
